A study of Mus musculus with 35 samples.

Results

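Voltage-gated sodium channels carry the inward current that starts and spreads the action potential. Each channel has 1 large alpha subunit, which forms the pore, and smaller beta subunits, which tune gating and anchor the channel to the membrane and to adhesion molecules. The 7 genes described here encode 4 alpha subunits (Scn1a, Scn2a1, Scn3a and Scn8a) and 3 beta subunits (Scn2b, Scn3b and Scn4b) of the brain. They were taken by gene symbol as 7 of 43629 gene identifiers in the mRNA counts, and Scn2a1 is also written Scn2a. Several of these genes are known epilepsy genes in people, and many antiseizure drugs block the channels they encode. In the hippocampus, Scn1a is known best from inhibitory neurons, Scn2a1 and Scn8a from the axon initial segment of principal cells and Scn3a from the developing brain.

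Poly(A) RNA of the left hippocampus was sequenced from 19 C57BL/6J mice of both sexes aged 6 to 7 weeks. SE mice received pilocarpine, a muscarinic agonist that induces status epilepticus (SE), at 350 mg/kg by the labels, with top-up doses until seizures by the study's methods, and control mice received saline vehicle. The methods place scopolamine, a muscarinic blocker given to lessen peripheral cholinergic effects, before both injections. There were 3 SE and 2 control libraries at 1 h after seizure onset, 2 SE and 3 control libraries at 8 h, and 3 SE libraries each at 36 h and at 120 h, which share 1 set of 3 control libraries. The source names of these shared controls read 36-120 hour, whereas their titles carry t0. Each library is 1 mouse, so n counts mice.

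Total counts per library ranged from 8503816 to 28465548, both extremes being the 8-h SE libraries. All 7 genes passed the filter on low counts in every comparison, with 114 to 833 counts per library for Scn4b and at least 447 for each of the others. The 11 hippocampal neuron markers were detected in every library, with summed levels of 5026 to 9560 CPM (counts scaled to the library size). The 15 choroid plexus markers, from an epithelium that lies beside the hippocampus, summed to between 4576 and 9501 CPM in the 1-h libraries and 1040 to 5960 CPM in the 8-h libraries. They summed to 7593 and 9074 CPM in 2 of the 3 SE libraries at 36 h and 8757 CPM in 1 of the 3 at 120 h, against 197 to 364 CPM in the other 6 libraries of those times. Of 95 markers in 10 cell type lists, 2 passed edgeR's quasi-likelihood test at any time, Gfap at 36 h (higher) and Cldn5 at 120 h (lower). That test called few genes at all, from 0% of those tested at 8 h to 0.0799% at 1 h. At 36 h, 15 of 15 choroid plexus markers had an unadjusted p under 0.05 in it. The likelihood ratio test of edgeR called 14 of these, and DESeq2 called 7. The labels name the batches G369 and G511 at 1 h, G317 and G511 at 8 h and G545 for every library of 36 h and 120 h.

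The alpha genes are close copies of each other over parts of their coding sequence, which bears on how their reads could be assigned. In the longest annotated coding sequence of each gene, 7.08% of all 53-base windows of Scn1a, 10.6% of Scn2a1 and 13.2% of Scn3a also occurred in a transcript of another gene, and 53 bases is the read length. The share was 0.0531% for Scn8a and 0% for Scn2b, Scn3b and Scn4b. The genes that shared windows with Scn1a, Scn2a1 and Scn3a were these 3 themselves and Scn9a, together with Scn8a for Scn3a. Counts of Scn1a, Scn2a1 and Scn3a are therefore uncertain to the extent that reads of such windows were split or dropped, although read pairs cover more sequence than 1 window.

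These 3 alpha genes lie together on chromosome 2 (NCBIM37), Scn3a at chr2:65295175-65405684 (minus strand), Scn2a1 at chr2:65458914-65605504 (plus strand) and Scn1a at chr2:66108838-66278897 (minus strand). Scn8a lies at chr15:100785829-100876360 (plus strand). The beta genes share chromosome 9, with Scn3b at chr9:40076801-40099203, Scn2b at chr9:44925959-44938153 and Scn4b at chr9:44946520-44962235, all on the plus strand, and 8366 bases separate Scn2b from Scn4b. Scn1a, Scn3a and Scn2b each overlap 1 annotated gene on the opposite strand (Gm13630, Gm13595 and Gm10684). The libraries kept strand, but the strand setting used for counting is not given in the sources used here, so reads of those partners may be included.

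The order of levels was taken in the 8 control libraries from RPKM, the CPM value per kilobase of exonic length. Scn2b had the highest mean RPKM at 68.1 ± 4.15 (SD, n = 8), followed by Scn3b at 63.3 ± 8.33. The leading alpha subunits were Scn8a at 49.7 ± 11.7 RPKM and Scn2a1 at 38.4 ± 10.9 RPKM. Scn1a followed at 10.4 ± 2.70 RPKM, Scn3a at 4.72 ± 1.38 RPKM and Scn4b at 3.77 ± 1.71 RPKM.

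**Figure D1:**
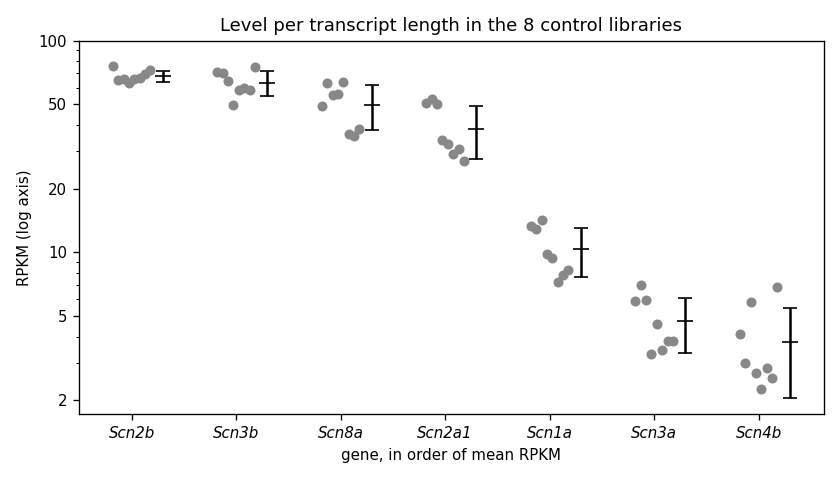
Levels of the 7 genes in RPKM (log axis) in the 8 control libraries, grey points for libraries and black bars for the mean and SD, with genes in order of mean RPKM. Scn2b and Scn3b lie highest, and Scn1a, Scn3a and Scn4b lie below 15 RPKM in every control library.

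Neighbours in that order were compared within libraries by an exact sign-flip permutation test (two-sided, 6 pairs, p adjusted over the 6). Scn2a1 was 3.69-fold above Scn1a per length in geometric mean (3.28 to 4.14 in single libraries, higher in 8 of 8, adjusted p = 0.0234, exact permutation test). Scn1a was 2.21-fold above Scn3a (1.84 to 2.96, higher in 8 of 8, adjusted p = 0.0234, exact permutation test). Scn8a was 1.30-fold above Scn2a1 (0.973 to 1.97, higher in 7 of 8, adjusted p = 0.0312, exact permutation test), a call that held in 3 of 8 repeats that each left out 1 control library (exact permutation adjusted p 0.0312 to 0.0625). Its ratio was 1.23 to 1.36 in these repeats. The smallest unadjusted p that the exact permutation test allows was 0.0078 with 8 libraries and 0.0156 in the repeats, which could therefore pass less easily. The threshold was missed by the other neighbours, namely Scn2b and Scn3b (ratio 1.08, 0.929 to 1.27, exact permutation adjusted p = 0.0938), Scn3b and Scn8a (ratio 1.30, 0.891 to 1.95, exact permutation adjusted p = 0.0820) and Scn3a and Scn4b (ratio 1.31, 0.552 to 2.33, exact permutation adjusted p = 0.133). Scn3b over Scn8a passed without 8-h control replicate 2 (ratio 1.37, exact permutation adjusted p = 0.0469), and Scn3a over Scn4b without control replicate 3 of 36 h and 120 h (ratio 1.48, exact permutation adjusted p = 0.0312). The same order held in the 11 SE libraries, where Scn3b was 1.46-fold above Scn8a and higher in 11 of 11 (adjusted p = 0.00146, exact permutation test). This pair differed between the time sets. Mean RPKM of Scn3b and Scn8a was 70.7 and 56.1 in the 1-h controls, and 64.4 and 36.7 in the controls of 36 h and 120 h. The tests pool time sets and batches, in different proportions for SE and control libraries, so the SE and control ratios cannot be compared as an SE effect. The order and these ratios depend on the length used, since the coding parts of the beta genes are short against their transcripts. With coding length in place of exonic length, Scn3b was 4.77-fold above Scn8a in the controls (higher in 8 of 8, adjusted p = 0.0156, exact permutation test), and Scn4b moved above Scn1a and Scn3a (1.36-fold over Scn1a, adjusted p = 0.0562, exact permutation test).

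The levels of the alpha genes differed between the 1-h controls and those of 36 h and 120 h by more than the SE fold change of any alpha gene at any time. Scn1a was at 148 and 142 CPM in the 1-h controls and at 80.3, 86.5 and 91.4 CPM in the controls of 36 h and 120 h. The 8-h controls split by batch, with Scn1a at 157 CPM in that of G511 and at 109 and 105 CPM in those of G317. Mean Scn8a was 621 CPM in the 1-h controls and 646 CPM in the 8-h controls. Mean CPM in the 1-h controls was 1.53-fold (Scn8a) to 1.79-fold (Scn2a1) that of the 36-h and 120-h controls for the 4 alpha genes. The corresponding ratio was 1.01 for Scn2b, 1.10 for Scn3b and 0.867 for Scn4b. The summed RPKM of the 3 beta genes over that of the 4 alpha genes accordingly ranged from 1.02 to 1.34 in the 10 libraries of 1 h and 8 h and from 1.62 to 1.99 in the 9 libraries of 36 h and 120 h, without overlap. No batch of 36 h and 120 h was shared with the earlier times, so time and batch cannot be told apart here, and the SE comparisons were made only against controls of the same set.

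**Figure D2:**
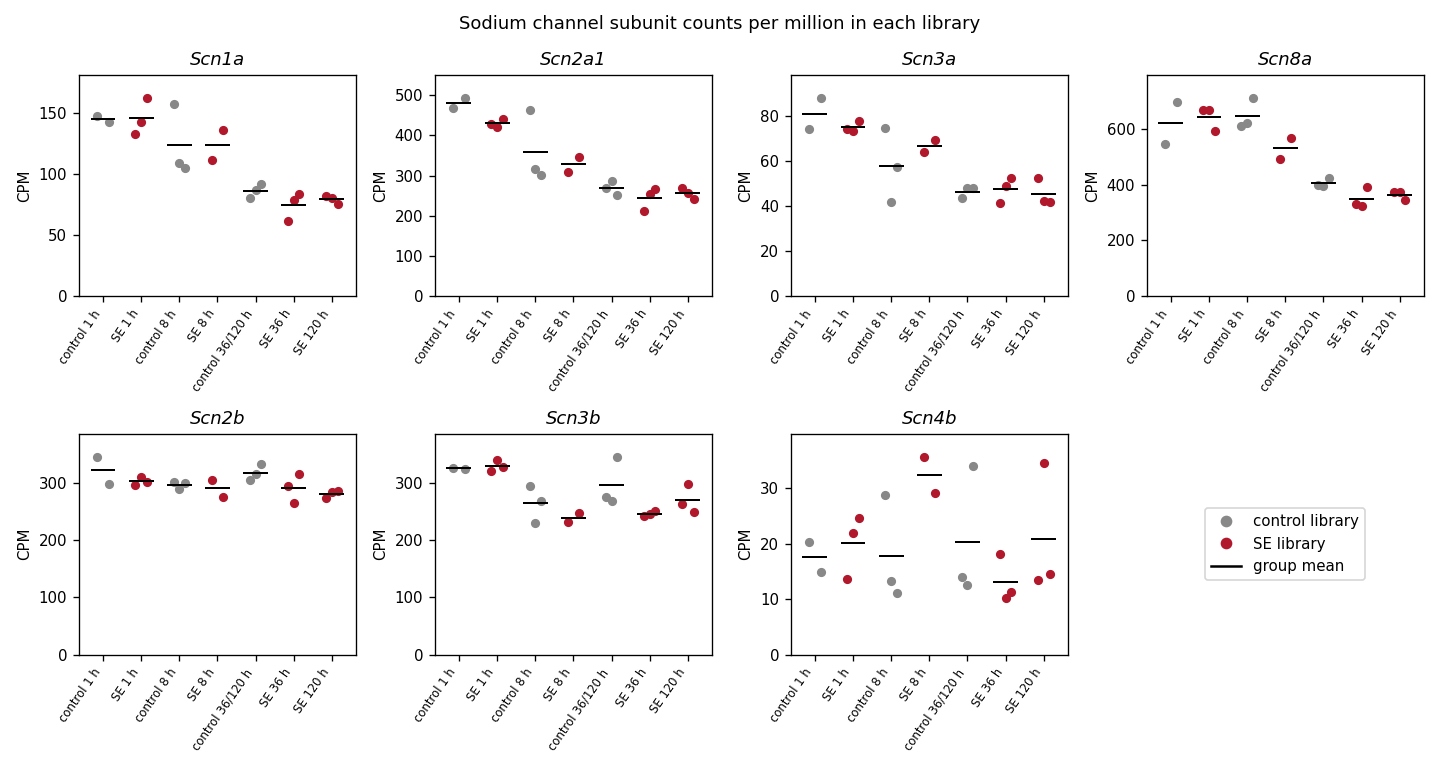
CPM of each gene in every library (grey control, red SE, black line the group mean), with groups in order of time and axes from 0. The 4 alpha genes step down from the 1-h to the 36-h and 120-h libraries in SE and control mice alike, Scn2b stays between 265 and 344 CPM, and Scn4b varies most within groups.

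At 1 h, when immediate early genes respond, none of the 7 genes passed the test (edgeR's quasi-likelihood test, adjusted p under 0.05 over all genes tested), whereas 0.0799% of the 16264 genes tested did. No member had an unadjusted p under 0.05, whereas 714 of the 16264 genes tested did. No member was among the 0.424% of genes called by edgeR's likelihood ratio test or the 0.42% called by DESeq2. The median log2 fold change (SE over control) was 0.0051 over the 7 genes and -0.0023 over all genes tested. Scn2a1 was at 428, 422 and 440 CPM in the SE libraries and at 469 and 492 CPM in the controls. The groups of Scn2a1 did not overlap, as was so in this direction for 8.55% of all genes tested, and its log2 fold change was -0.16 ± 0.09 (SE of the estimate; adjusted p = 0.999, edgeR). Scn8a was at 668, 667 and 591 CPM after SE and at 545.3 and 696 CPM in the controls, which enclose the SE values. Within the batches, the Scn8a difference was -0.06 on the log2 scale in G369 (2 SE, 1 control) and 0.12 in G511 (1 of each). With batch as a covariate it was 0.01 ± 0.08 (adjusted p = 0.997, edgeR). The 95% confidence intervals of the 6 genes other than Scn4b lay between 0.770-fold and 1.26-fold.

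At 8 h, after the SE phase, 0 of 7 genes passed and 0% of the 15610 genes tested did, although 1478 of these genes, none of them a member, had an unadjusted p under 0.05. Neither the likelihood ratio test, which called 0.57% of genes, nor DESeq2, which called 0.728%, called a member. Scn4b, a beta subunit known for its part in resurgent sodium current, was at 35.6 and 29.1 CPM after SE and at 28.9, 13.3 and 11.1 CPM in the controls. Both SE values lay above the 3 controls, as did those of 14.6% of all genes tested, with control replicate 1 just below the lower SE value. The log2 fold change of Scn4b was 0.84 ± 0.37 (adjusted p = 0.527, edgeR quasi-likelihood test), or 1.79-fold with a 95% confidence interval of 0.999 to 3.19.

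The Scn4b comparison at 8 h turned on control replicate 1, the only 8-h library of batch G511. With batch as a covariate, which sets that library aside, the log2 fold change was 1.39 ± 0.20 (adjusted p = 0.00128, edgeR), and 13.5% of all genes tested passed that test. Without that library the value was 1.38 (adjusted p = 0.0020), and 13.4% of all genes passed. Within batch G317 the difference of mean log2 CPM was 1.40 (2 SE, 2 control). Without the filter on low counts Scn4b also passed (0.85, adjusted p = 0.0295), as did 1.41% of the genes tested then. With the mean log2 level of 11 pan-neuronal markers as a covariate the value was -0.18 (adjusted p = 0.836, edgeR). Those markers summed lower in both 8-h SE libraries than in every 8-h control, so their level and SE cannot be told apart here.

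Other markers moved with Scn4b in some libraries. The 7 thalamic neuron markers, of a tissue that borders the hippocampus, summed to 157 CPM in 8-h control replicate 1 and to 107 and 89.6 CPM in the other 8-h controls. They summed to 81.9 and 107 CPM in the 8-h SE libraries, within the range of the controls or below it. The 8 striatal neuron markers, of a tissue known for Scn4b, summed to 150 and 121 CPM in the 8-h SE libraries and to 117, 144 and 125 CPM in the 8-h controls. No marker of either list was at 0 in any library, and their part in the Scn4b values was not tested. In bulk tissue, moreover, a change in the number of cells of a type and a change of RNA per cell cannot be told apart.

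Among the alpha genes at 8 h, Scn8a was at 491 and 568 CPM after SE and at 610, 620 and 709 CPM in the controls. These groups did not overlap, as was so in this direction for 13.4% of all genes tested. The log2 fold change of Scn8a was -0.30 ± 0.16 (adjusted p = 0.575, edgeR), and it was -0.33 with batch as a covariate (adjusted p = 0.0878). The 11 pan-neuronal markers summed to 8134 and 8374 CPM in the 8-h SE libraries and to between 9542 and 11708 CPM in the controls, also without overlap. With their score as a covariate Scn8a was at -0.14 (adjusted p = 0.758, edgeR), whereas Scn2a1 was at -0.66 and Scn1a at -0.49 on the log2 scale. Since these markers separated SE from control libraries, their score and SE cannot be told apart at 8 h, and their part in the subunit values was not tested. Scn3a was at 63.9 and 69.2 CPM after SE and at 74.6, 41.6 and 57.6 CPM in the controls, with the highest value again in control replicate 1. Its log2 fold change was 0.19 ± 0.24, and 0.42 with batch as a covariate (adjusted p = 0.0927, edgeR). The intervals of the 6 genes other than Scn4b were widest at this time, from 0.636-fold to 1.65-fold.

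At 36 h, in the latent period before spontaneous seizures, 0 of 7 genes passed, against 0.0252% of the 15850 genes tested, and no member was among the 0.789% called by the likelihood ratio test or the 0.67% called by DESeq2. Log2 fold changes were below 0 for 6 of the 7 genes, and for 48.3% of all genes tested. The median was -0.19 over the 7 genes and 0.0065 over all genes tested. Scn3b was at 243, 245 and 252 CPM after SE and at 276, 268 and 345 CPM in the controls. All SE values of Scn3b lay below the controls, and its log2 fold change was -0.25 ± 0.10 (adjusted p = 0.588, edgeR). It was the only one of the 7 with an unadjusted p under 0.05, as 1251 of the 15850 genes tested had. Without control replicate 3, the library at 345 CPM, the log2 fold change of Scn3b was -0.12. Scn8a was at 331, 321 and 391 CPM after SE and at 400, 393 and 425 CPM in the controls, again without overlap but with the highest SE value close to the lowest control. Its log2 fold change was -0.20 ± 0.09 (adjusted p = 0.636, edgeR), and -0.29 without SE replicate 3 (adjusted p = 0.0715, edgeR). In that setting 469 of 16171 genes tested passed. Both SE libraries left in it were those high in choroid plexus markers, so SE and that tissue cannot be told apart there. Groups did not overlap in this direction for 2 of the 7 genes and for 8.28% of all genes tested.

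Choroid plexus markers moved with these values at 36 h. They summed to 9074 and 7593 CPM in SE replicates 1 and 2, which had the lower Scn8a values of 331 and 321 CPM, and to 197 CPM in SE replicate 3, at 391 CPM for Scn8a. When the score of these markers was added to the model, Scn8a was at -0.04 (adjusted p = 0.883, edgeR), Scn1a at -0.03, Scn2a1 at -0.0052 and Scn2b at -0.0023 on the log2 scale. Scn3b was at -0.22 in that fit, close to its value without the score, Scn4b at -0.81 and Scn3a at 0.19. The 3 controls summed to between 253 and 364 CPM, so SE replicate 3 was the only SE library of 36 h with a sum as low. The score and SE can therefore hardly be told apart at 36 h, and the part of this tissue in the subunit values was not tested.

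The other genes overlapped between the groups at 36 h. Scn1a was at 61.0, 78.1 and 83.5 CPM after SE and at 80.3, 86.5 and 91.4 CPM in the controls, and its log2 fold change was -0.19 ± 0.11. Scn2a1 (-0.12 ± 0.10), Scn2b (-0.11 ± 0.08) and Scn3a (0.05 ± 0.10) lay within 2 standard errors of 0 on the log2 scale. Scn4b was at 18.1, 10.1 and 11.2 CPM after SE and at 14.1, 12.6 and 34.0 CPM in the controls. Its log2 fold change of -0.60 ± 0.37 rested on control replicate 3, since it was 0.0059 without that library. That library had thalamic neuron markers at 105 CPM in sum, against 60.0 and 50.9 CPM in the other controls of this set. SE replicate 2, however, had a higher sum of 125 CPM and the lowest Scn4b of the 19 libraries, and the part of this tissue in the Scn4b values was not tested.

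At 120 h, late in the latent period, 0 of 7 genes passed, against 0.0563% of the 15996 genes tested, and no member was called by the likelihood ratio test (0.475% of genes) or DESeq2 (0.76%). Log2 fold changes were below 0 for 6 of the 7 genes and for 47% of all genes tested, with a median of -0.11 over the 7 genes and 0.011 over all genes tested. These comparisons use the same 3 controls as those at 36 h, so the lower values at both times are not independent. Scn2b was at 273, 284 and 285 CPM after SE and at 305, 316 and 332 CPM in the controls. The groups of Scn2b did not overlap, and its log2 fold change was -0.17 ± 0.06 (0.890-fold, 95% interval 0.811 to 0.977, adjusted p = 0.432, edgeR). Scn8a was at 371, 373 and 344 CPM after SE, below the 3 controls given above, with a log2 fold change of -0.15 ± 0.06 (adjusted p = 0.479, edgeR). These 2 genes had an unadjusted p under 0.05, as did 1536 of the 15996 genes tested. Their groups did not overlap, as was so in this direction for 9.1% of all genes tested. Pan-neuronal markers, none of which passed, had log2 fold changes below 0 for 11 of 11 genes at 120 h with a median of -0.09, and their part in the lower subunit values was not tested. Choroid plexus markers summed to 8757 CPM in SE replicate 3 and to 231 and 311 CPM in SE replicates 1 and 2. SE replicate 3 had the lowest Scn8a of the 120-h SE libraries (344 CPM) but the highest Scn2b (285 CPM). The part of this tissue in the 120-h values was not tested either.

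Scn1a (-0.11 ± 0.06), Scn2a1 (-0.06 ± 0.07), Scn3b (-0.12 ± 0.11) and Scn3a (-0.02 ± 0.10) overlapped between SE and control at 120 h on the log2 scale. Scn4b was at 13.5, 34.5 and 14.5 CPM after SE, spread as widely as the controls, with a log2 fold change of 0.07 ± 0.45 that became -0.53 without SE replicate 2. SE replicate 2 also had the highest sum of thalamic neuron markers of the 19 libraries, 196 CPM against 60.4 and 73.1 CPM in the other 120-h SE libraries. The higher sum lay in Prkcd, Zic1 and Slc17a6, at 87.3, 69.8 and 25.3 CPM in that library, whereas Lef1 (3.27 CPM) and Ramp3 (4.23 CPM) were lower there than in the other 120-h SE libraries and Tcf7l2 (4.77 CPM) and Tnnt1 (1.49 CPM) were within 1 CPM of them. The intervals of the other 6 genes lay between 0.777-fold and 1.15-fold at 120 h.

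**Figure D3:**
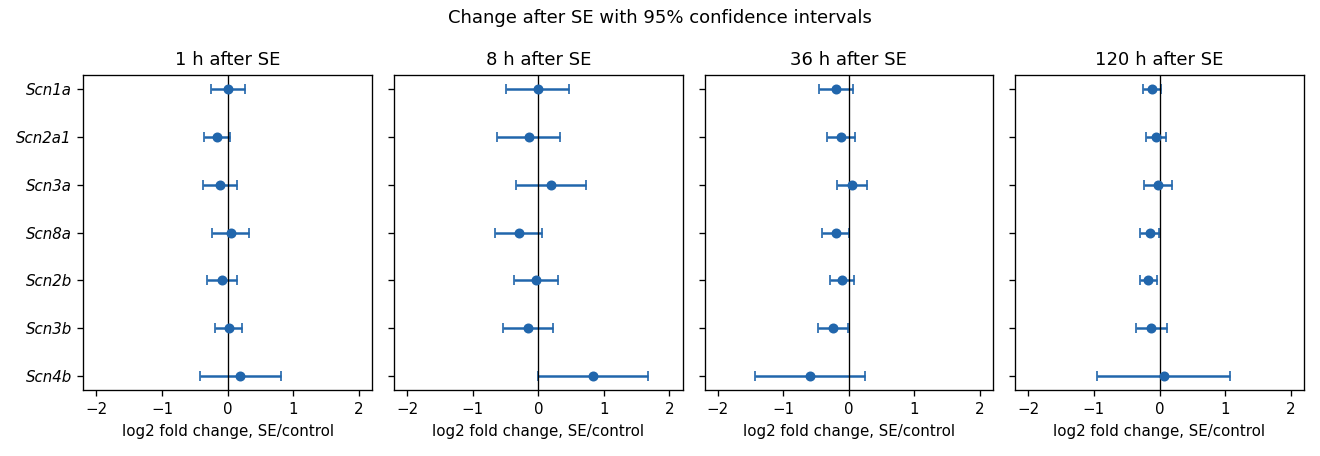
Log2 fold change of SE over control for each gene at each time (points), with 95% confidence intervals (bars), from edgeR's quasi-likelihood fit. Values of 6 genes lie within 0.30 of 0 at every time, and the intervals of Scn4b are the widest of the 7 at each time.

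**Figure D4:**
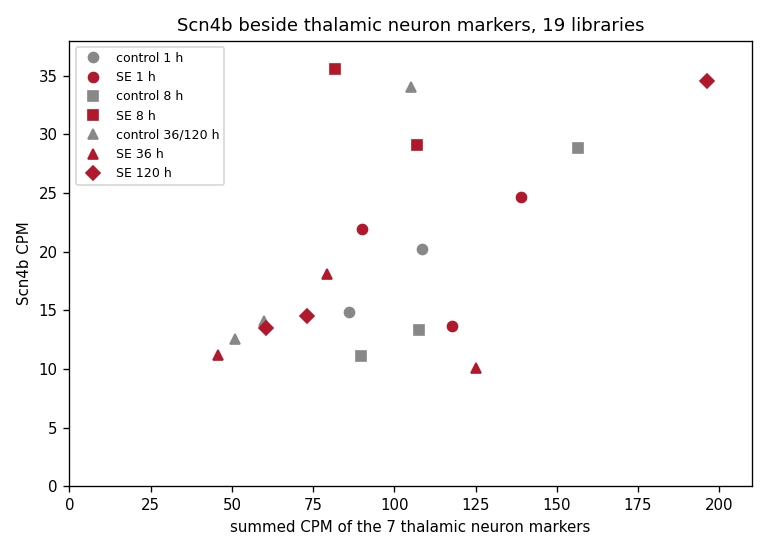
Scn4b (CPM) against the summed CPM of 7 thalamic neuron markers in the 19 libraries, grey for control and red for SE, with the shape giving the time set. Libraries with Scn4b above 28 CPM include 8-h control replicate 1, control replicate 3 of 36 h and 120 h, and 120-h SE replicate 2, all with marker sums above 100 CPM, and both 8-h SE libraries, with sums of 81.9 and 107 CPM. Sums above 100 CPM also occur with lower Scn4b, as in 36-h SE replicate 2 (125 CPM, Scn4b 10.1 CPM), 1-h SE replicates 1 and 3 (118 and 139 CPM, Scn4b 13.7 and 24.7 CPM), 1-h control replicate 1 (109 CPM, Scn4b 20.2 CPM) and 8-h control replicate 2 (107 CPM, Scn4b 13.3 CPM).

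Over all times in 1 model with the time set as a term, 0 of 7 genes passed by any of the 3 tools, and 0% of 17415 genes by edgeR's quasi-likelihood test, with 1386 of these at an unadjusted p under 0.05. Scn8a had the smallest p of the members, with a log2 fold change of -0.15 ± 0.07 (0.900-fold, 95% interval 0.817 to 0.990, adjusted p = 0.596, edgeR). Scn2b followed at -0.10 ± 0.05, Scn3b at -0.13 ± 0.06 and Scn2a1 at -0.13 ± 0.07 on the log2 scale, whereas Scn1a (-0.07 ± 0.08) and Scn3a (0.02 ± 0.09) lay closer to 0. Scn4b was at 0.17 ± 0.26.

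Differences between successive SE effects were tested directly. No member passed between 1 h and 8 h, between 8 h and 36 h or between 36 h and 120 h, against 0.149%, 0.144% and 0.0804% of the 17415 genes tested. Unadjusted p values were under 0.05 for 0, 1 and 0 members, and for 2139, 2457 and 733 of the 17415 genes. Neither other tool called a member. In the same order the likelihood ratio test called 128, 198 and 42 of the 17415 genes. DESeq2 called 213 of 14707, 307 of 14032 and 43 of 16056 genes. The largest of these differences was that of Scn4b, whose SE effect at 36 h minus that at 8 h was -1.47 ± 0.62 on the log2 scale (adjusted p = 0.30, edgeR). It became -2.02 (adjusted p = 0.0419) without 8-h control replicate 1, a setting in which 11.4% of all genes passed, and -0.86 (adjusted p = 0.581) without control replicate 3 of 36 h and 120 h, so that its size rests on these 2 libraries. With no filter on low counts the difference passed (-1.44, adjusted p = 1.2e-05, with 2.73% of all genes past the threshold), as did that between 36 h and 120 h (0.568% of all genes).

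The make-up of the alpha subunits was then read as the share of each in the summed RPKM of the 4, which does not depend on library scaling. Scn8a made up 41.3% to 58.0% of the sum in the 19 libraries, Scn2a1 29.4% to 42.5%, Scn1a 8.54% to 12.0% and Scn3a 3.21% to 5.74%. SE and control shares were compared at each time by an exact permutation test (two-sided, 16 comparisons), in which 0.1 is the smallest p that these group sizes allow, so that none could pass. Scn3a at 36 h came closest, with 5.32%, 5.74% and 5.50% after SE and 4.54%, 4.90% and 4.91% in the controls. Its groups did not overlap, and the mean share was 0.739 percentage points higher after SE (exact permutation p = 0.1, adjusted p = 0.686). At 8 h, Scn8a made up 47.8% and 48.2% in the SE libraries, which are of batch G317. Control replicates 2 and 3 of that batch had higher shares of 54.3% and 58.0%, and control replicate 1 of batch G511 a lower share of 44.0%.

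**Figure D5:**
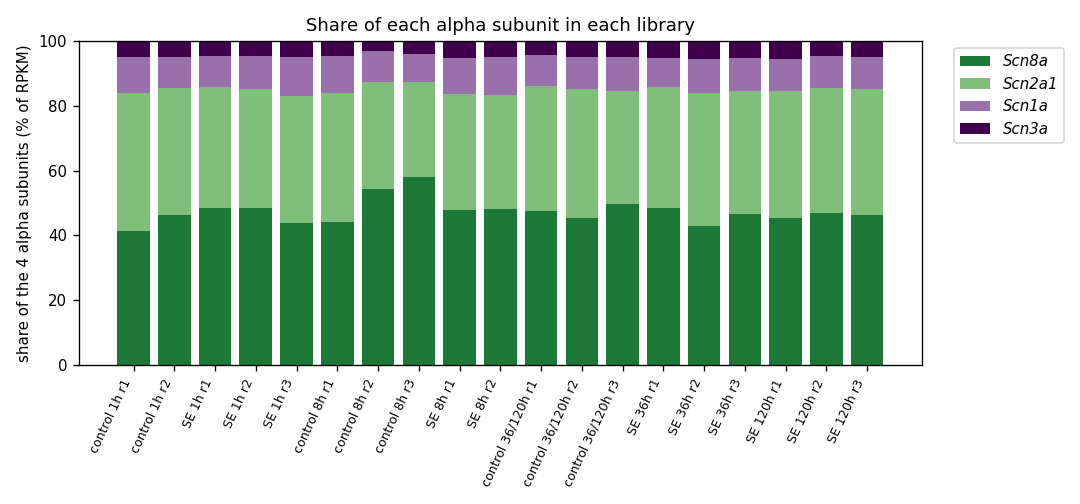
Stacked bars give the share of each alpha gene, in percent of their summed RPKM, in each of the 19 libraries. Scn8a and Scn2a1 together make up over 80% in every library, and 8-h control replicates 2 and 3 have the highest Scn8a shares.

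Other sodium channel genes outside the 7 members were also measured, and none passed at any time. Scn7a (2.14 to 9.10 CPM) and Scn9a (2.14 to 7.38 CPM) were low in all libraries. Scn7a had its largest value at 1 h, a log2 fold change of 0.69 ± 0.30 (adjusted p = 0.999, edgeR), and Scn9a ranged from -0.27 ± 0.20 at 120 h to 0.12 ± 0.24 at 36 h. Scn4a of skeletal muscle and Scn10a and Scn11a of sensory neurons stayed at or below 0.217, 0.211 and 0.253 CPM and did not pass the filter on low counts.

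Proteins that bind, anchor or modify the channels, or that share the axon initial segment with them, formed a list of 22 genes. None of the 22 passed at any of the 4 times (edgeR quasi-likelihood test), with 0, 2, 2 and 6 at an unadjusted p under 0.05 in the order of time. Among all genes tested, 714 of 16264, 1478 of 15610, 1251 of 15850 and 1536 of 15996 had such a p. None was called by the likelihood ratio test either, which called 0.424%, 0.57%, 0.789% and 0.475% of all genes in the order of time. DESeq2 called 1 of the 22, at 120 h alone, against 0.42%, 0.728%, 0.67% and 0.76% of all genes. With batch as a covariate 3 of the 22 passed at 8 h, where 13.5% of all genes did. Log2 fold changes were below 0 for 14, 15, 17 and 18 of the 22 in the order of time, against 50.5%, 50.9%, 48.3% and 47% of all genes tested, with medians of -0.03, -0.07, -0.08 and -0.08. They were also below 0 for 9, 8, 8 and 11 of the 11 pan-neuronal markers and 8, 8, 7 and 7 of the 11 hippocampal neuron markers. For the 11 interneuron markers the numbers were 6, 6, 3 and 7. The values at 36 h and 120 h share their controls.

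Kcnq3, a subunit of the M-type potassium channel, which sits beside sodium channels at the initial segment, had the smallest p of the list at 36 h, with 167 ± 11.5 CPM after SE and 208 ± 19.3 CPM in the controls and a log2 fold change of -0.30 ± 0.09 (adjusted p = 0.423, edgeR). Nedd4l, a ubiquitin ligase for membrane channels, followed with -0.18 ± 0.07, and Kcna1, an axonal potassium channel, with -0.15 ± 0.09. Fgf11, Fgf12 and Fgf13 encode fibroblast growth factor homologous factors, which bind the tail of the alpha subunits. Fgf11 was at 36.1 ± 5.10 CPM after SE at 8 h (n = 2) and 55.3 ± 7.89 CPM in the controls (SD, n = 3), with a log2 fold change of -0.63 ± 0.19 (adjusted p = 0.478, edgeR). At 8 h Fgf13 was at -0.38 ± 0.15 and Fgf12 at -0.35 ± 0.16 on the log2 scale. Fgf11 had log2 fold changes of -0.24 ± 0.14 at 1 h and -0.40 ± 0.11 at 120 h. Bace1, the secretase that cleaves beta subunits (-0.20 ± 0.12), Fgf12 (-0.23 ± 0.16) and Kcna1 (0.12 ± 0.09) were among the 4 smallest p of the list at 1 h. None of these was under 0.05 unadjusted (adjusted p = 0.999 for each, edgeR). Among the 4 smallest at 120 h were Kcna2, an axonal potassium channel (-0.35 ± 0.10), and Spnb4, the spectrin of the initial segment (-0.19 ± 0.05). Their adjusted p was 0.357 and 0.362 (edgeR).

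The genes whose course was most like that of each member were found among 14421 genes, by the mean absolute difference of log2 CPM over the 19 libraries after each library was centred on the controls of its time set. Mtmr7 and Kif5c, a neuronal kinesin, were nearest to Scn1a, at 0.052 and 0.053 on the log2 scale, where the median gene was at 0.22. Nalcn, a sodium leak channel, and Fam49a were nearest to Scn2a1 (0.056 and 0.057), Ccdc25 and Stxbp5 to Scn3a (0.084 and 0.086) and Rasgrf1 and Vti1a to Scn8a (0.059 and 0.061). Abhd6 and D17Wsu92e were nearest to Scn2b (0.052 and 0.054), and Mtap4 and St8sia3 to Scn3b (0.051 and 0.061). Scn4b had no gene as close, with Galnt6 at 0.27 and Slc16a1 at 0.28 against a median of 0.56. Small differences here also follow from small movements, since the 6 genes other than Scn4b deviated from their controls by 0.091 to 0.16 on average and Scn4b by 0.54.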

How the data were processed

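Per the labels, the authors demultiplexed reads with bcl2fastq, used HISAT2 2.1.0 for alignment to NCBIM37 (mm9) and HTSeq for counting over genes, and they deposited raw counts without normalization. The annotation named by the study is Ensembl release 67, but 10520 of 43629 identifiers lie above the highest of release 65, whose names, positions and lengths were used here, so lengths may differ from those counted. The small RNA counts were not used. All 19 mRNA columns matched a sample label.

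Genes kept by filterByExpr were normalized by TMM and tested with edgeR 4.0.16 (R 4.3.3) by the quasi-likelihood test on the libraries of each time, with p adjusted by Benjamini-Hochberg over all genes tested (threshold 0.05). CPM uses TMM-scaled library sizes, log2 CPM a prior count of 1. P values measure the spread between libraries, each of 1 mouse. The main fits hold no batch term, so at 1 h and 8 h this spread also includes differences between batches. The fit was tested on simulated counts. Levels and shares were tested with exact permutation tests (Python 3.11.15). Alternatives were the likelihood ratio test, DESeq2 1.42.0, RLE, no filter, all 19 libraries, covariates, a replicate block and leaving out each library. Named genes are the 7 members, the other sodium channel genes, the 4 partner genes with the smallest p at each time, and 2 nearest genes per member. Some genes that this rule takes are not reported here. Members and lists were chosen with earlier results of these data known.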

Additional observations from a re-analysis of the deposited data

How the results depend on the processing

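Of 626 values of the 7 genes under alternatives, 576 kept their direction and their side of the threshold, 6 passed it (all of Scn4b) and 44 changed sign without passing it. The number of members past the threshold rose from 0 to 1 at 8 h with batch as a covariate or no filter, and between 8 h and 36 h and between 36 h and 120 h with no filter. Leaving out each library gave 0 to 1 members at 8 h and 0 to 1 between 8 h and 36 h, the 1 being Scn4b without 8-h control replicate 1. Where 1 library was left in a group, its spread was taken to equal that of the other group. The cause was not tested for any of these changes.

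Log2 fold changes that changed sign are given next. With no filter Scn1a was at -0.0058 at 1 h and 0.0091 at 8 h, and with all 19 libraries in 1 model it was at 0.0056 at 8 h. With the choroid plexus score in the model, Scn1a was at 0.19, Scn2a1 at 0.061 and Scn3b at 0.014 at 8 h, Scn3a at 0.027 at 120 h and Scn1a at 0.0092 over all times. With the pan-neuronal score as a covariate, Scn1a was at -0.11, Scn3b at -0.0073 and Scn4b at -0.24 at 1 h, Scn3a at -0.15 and Scn4b at -0.18 at 8 h, Scn2a1 at 0.069, Scn3a at 0.15 and Scn4b at -1.11 at 120 h, and Scn4b at -0.35 over all times. With batch as a covariate, Scn1a was at 0.21 and Scn2a1 at 0.081 at 8 h.

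Leaving out each library gave these ranges where a sign changed. At 1 h they were -0.077 to 0.069 for Scn1a, -0.23 to 0.0072 for Scn3a, -0.12 to 0.23 for Scn8a, -0.19 to 0.016 for Scn2b, -0.010 to 0.039 for Scn3b and -0.017 to 0.43 for Scn4b. At 8 h they were -0.17 to 0.21 for Scn1a, -0.27 to 0.076 for Scn2a1, -0.00072 to 0.42 for Scn3a and -0.10 to 0.023 for Scn2b. At 36 h they were -0.025 to 0.13 for Scn3a and -0.92 to 0.0059 for Scn4b, and at 120 h -0.13 to 0.033 for Scn3a, -0.20 to 0.0027 for Scn3b and -0.53 to 0.67 for Scn4b. Over all times the range was -0.030 to 0.066 for Scn3a.

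Replicate numbers did not pair the mice: same-numbered SE and control libraries deviated together with r between -0.24 and 0.21 over genes. A replicate block on the number changed no call of a member, and the sign of Scn1a alone at 1 h (-0.078). Intervals of the 6 genes other than Scn4b were widest at 8 h, and all 7 genes had 114 counts or more in each library. Over all genes the main test called 13, 0, 4 and 9 genes at 1 h, 8 h, 36 h and then 120 h. In the same order the likelihood ratio test called 69, 89, 125 and 76, DESeq2 63, 96, 102 and 119, no filter 328, 343, 141 and 52, the 19-library model 55, 423, 10 and 0, the replicate block 42, 31, 12 and 1, the choroid plexus score 3, 0, 40 and 2 and the pan-neuronal score 20, 18, 74 and 0. Batch gave 2111 at 8 h. Leaving out 1 library gave 3 to 53 at 1 h (53 without control replicate 2), 0 to 2065 at 8 h (2065 without control replicate 1), 0 to 469 at 36 h (469 without SE replicate 3, and 8 at most without any other) and 1 to 3 at 120 h.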
